A study of Gallus gallus with 5 samples.

Results

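The regions described here are the called peaks on chromosome 1 of the chicken, the longest of its macrochromosomes, in immature erythrocytes. All peaks listed under that chromosome in the 5 deposited peak lists were taken, with no other selection. They numbered 65543 of the 425322 peaks in all lists. H3R2me2s had 12924 of its 103231 peaks there in replicate 1 and 21142 of 120536 in replicate 2. H4R3me2a had 9401 of 77936 in replicate 1 and 19635 of 113426 in replicate 2, and the input list 2441 of 10193. The highest peak end, at 201.0 Mb, was taken as the end of the chromosome, which then made up 19.5% of the length spanned by peaks in the series.

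Arginines near the ends of histone tails can carry 2 methyl groups. In H3R2me2s they sit symmetrically on arginine 2 of the H3 tail, and in H4R3me2a asymmetrically on arginine 3 of the H4 tail. Enzymes such as PRMT5 place symmetric and PRMT1 places asymmetric dimethylarginine, and H4R3me2a is known as a mark of active chromatin that favours histone acetylation. Chicken erythrocytes keep a nucleus, and in the immature (polychromatic) cell most of the chromatin is already condensed. Large bird chromosomes carry fewer genes per length than the microchromosomes, and gene-rich and gene-poor stretches alternate along them.

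Chromatin immunoprecipitation with sequencing was done on nuclei of G0 immature erythrocytes fixed with 0.5% formaldehyde, with chromatin sheared to 200 bp. There were 2 libraries for H3R2me2s, 2 for H4R3me2a and 1 of input chromatin without antibody. The labels give no treatment and no age of the birds, and their fields disagree on the breed (Lohmann or Bovan). The antibodies were from Millipore for H3R2me2s and from Active Motif for H4R3me2a. The first library of either mark was sequenced on SOLiD and its peaks were called by MACS 1.4.2 against a control. The second library, like the input, was sequenced on Illumina and its peaks were called by MACS 2 with no control, so that replicate number, platform, depth and caller changed together. Tags after filtering numbered 10.3 to 14.2 M in the SOLiD libraries, 31.2 to 35.1 M in the Illumina ChIP libraries and 27.1 M in the input. The alignment file numbers in the labels and the headers of the 3 Illumina libraries disagreed, and the groups of the labels were kept. The design text calls the replicates biological but does not say which birds they came from, so any p-value measures only the spread between these libraries. No genome of the files' build was at hand, and neither sequences nor genes are given.

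Chromosome 1 held H3R2me2s peaks at 64.3 per Mb in replicate 1 and 105 per Mb in replicate 2, and chromosomes 2 to 5, the other macrochromosomes, held 69.7 and 97.4 per Mb. H4R3me2a peaks lay at 46.8 and 97.7 per Mb on chromosome 1 and at 50.2 and 91.3 per Mb on chromosomes 2 to 5. Both replicate 1 lists were thus a little less dense and both replicate 2 lists a little denser on chromosome 1. The input list stood apart, with 12.1 peaks per Mb on chromosome 1 against 8.53 on chromosomes 2 to 5. The log2 ratio of the densities was -0.12, 0.11, -0.10 and 0.10 for H3R2me2s replicates 1 and 2 and H4R3me2a replicates 1 and 2, and 0.51 for the input. Its mean over the 4 ChIP libraries was -0.0027 ± 0.124 (SD, n = 4; 2-sided exact sign-flip permutation p = 0.88). This mean joins negative values in both replicate 1 lists with positive values in both replicate 2 lists. The smallest p that 4 libraries allow is 0.13, so the test cannot decide whether chromosome 1 differed from the other macrochromosomes.

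Chromosome 2, the next longest, was less dense than chromosome 1 in every list. It held 57.1 and 92.5 H3R2me2s peaks per Mb, 41.0 and 86.4 H4R3me2a peaks per Mb and 9.49 input peaks per Mb. Chromosome 5, the shortest of these chromosomes, was denser than chromosome 1 in all 4 ChIP lists, with 93.5 and 111 H3R2me2s peaks and 68.9 and 105 H4R3me2a peaks per Mb. Mean log2 ratios were 0.18 over chromosome 2 and -0.32 over chromosome 5. Each had the same sign in 4 of 4 ChIP libraries (2-sided exact sign-flip permutation p = 0.13, the smallest that 4 libraries allow). Over chromosomes 3 and 4 the means were -0.015 and -0.025 (2-sided exact sign-flip permutation p = 0.75 for both). There both replicate 1 lists were negative and both replicate 2 lists positive. These 4 comparisons with a single chromosome were added after seeing the data. Against all other chromosomes together, the microchromosomes included, the mean log2 ratio was -0.49, negative in 4 of 4 ChIP libraries.

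Peaks on chromosome 1 had the widths of those on the other macrochromosomes. The median was 663 and 610 bp for H3R2me2s replicates 1 and 2 on chromosome 1, and 671 and 608 bp on chromosomes 2 to 5. For H4R3me2a they were 741 and 435 bp on chromosome 1 and 757 and 425 bp on chromosomes 2 to 5. H3R2me2s peaks covered 5.37 and 7.82% of chromosome 1, H4R3me2a peaks 4.37 and 5.35% and input peaks 0.247%. The median distance from a peak to the next was 3.91 and 4.34 kb in the H3R2me2s lists, 5.37 and 4.67 kb in the H4R3me2a lists and 32.5 kb in the input list.

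The chromosome was divided into 201 bins of 1 Mb, each peak being counted where its midpoint lay, and the last bin, of 0.993 Mb, was left out of medians. A full bin held a median of 48 H3R2me2s peaks in replicate 1 (0 to 320 over the full bins) and 96 in replicate 2 (0 to 280). For H4R3me2a the median was 35 in replicate 1 (0 to 266) and 88 in replicate 2 (0 to 278), and for the input it was 9 (0 to 72). In all 5 lists a single bin was empty, and it was the same one. The 5th and 95th percentiles of H3R2me2s bin counts were 13.0 and 154 in replicate 1 and 42 and 191 in replicate 2. Those of H4R3me2a were 9 and 118 in replicate 1 and 35 and 180 in replicate 2, and those of the input 3 and 33. The lists of replicate 1 were therefore the more uneven ones for both marks.

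**Figure D1:**
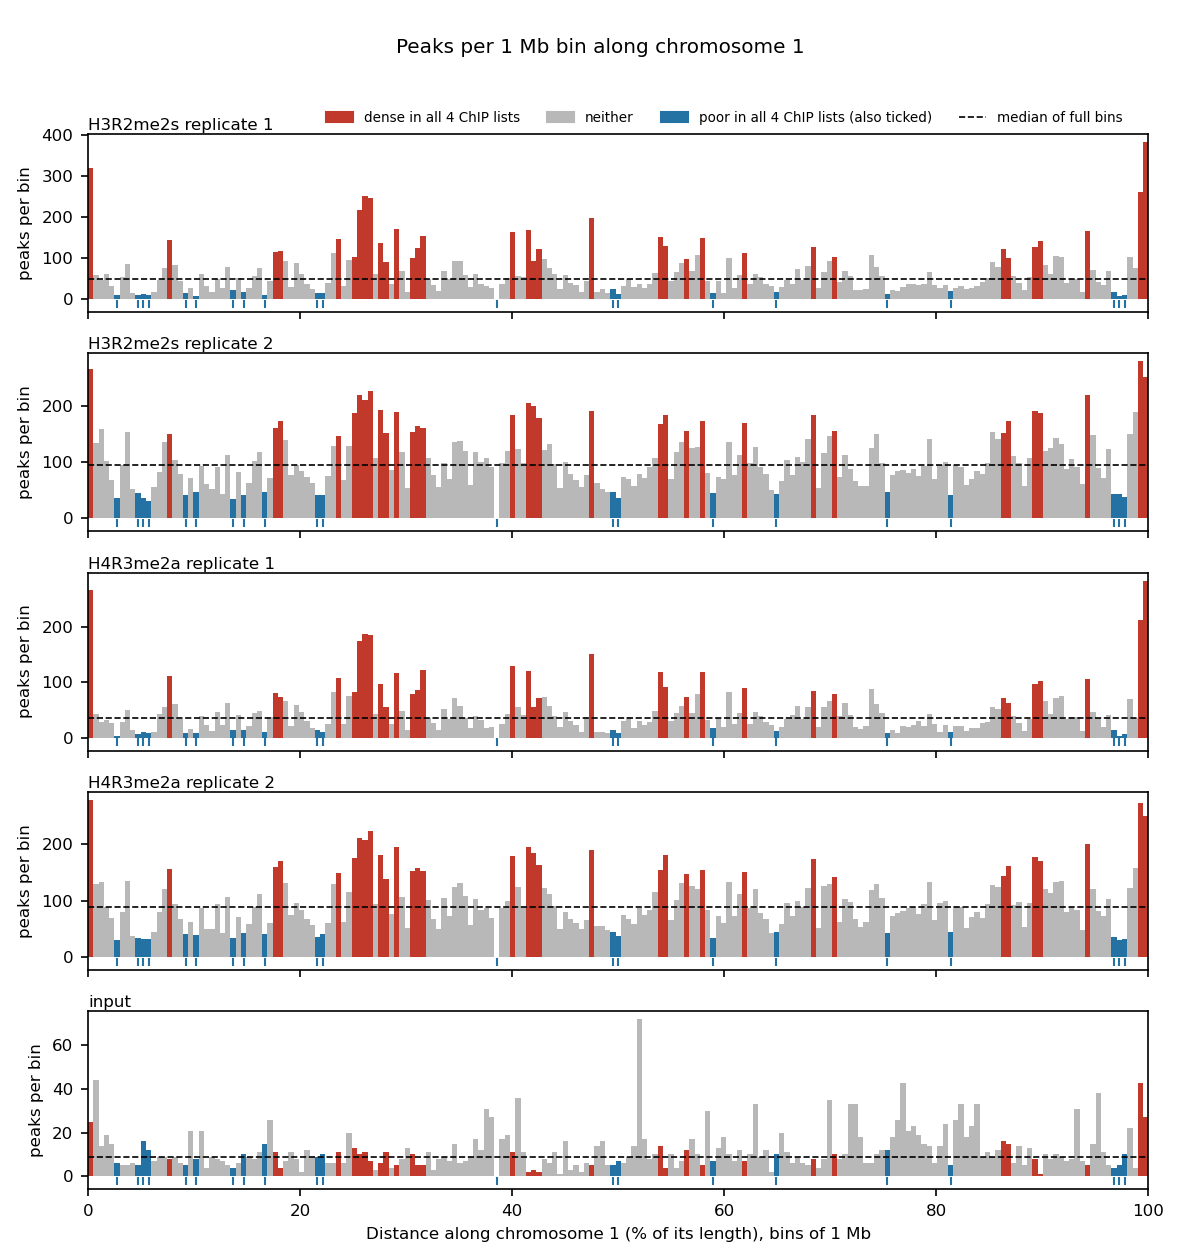
Peaks per 1 Mb bin (y axis, a separate linear scale for each list) along chromosome 1 (x axis, percent of its length) in the 4 ChIP lists and the input. Bars are coloured by whether a bin was dense or poor in all 4 ChIP lists, and dashed lines are the medians of 48, 96, 35, 88 and 9 peaks; the 34 dense bins include both ends and a block of 4 bins left of the middle, while the highest input bin, with 72 peaks, was neither dense nor poor.

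The densest 10% of bins (20 bins, chosen in each list by itself) held 29.6% of the H3R2me2s peaks of chromosome 1 in replicate 1 and 19.6% in replicate 2, and 30.8 and 20.2% of the H4R3me2a peaks. The input lay between these with 28.7%. The share averaged 24.6 ± 7.04% for H3R2me2s and 25.5 ± 7.47% for H4R3me2a (SD, n = 2 each), a difference of -0.926 percentage points with H4R3me2a the higher in both replicates (2-sided exact permutation p = 0.67, where 0.33 is the smallest possible). With 2 libraries that spread is the gap between the replicates, which differ in platform. Within the replicates the difference was -1.23 points in replicate 1 and -0.620 points in replicate 2, and with 2 libraries per mark no test could have passed 0.05. The mean share on chromosomes 2 to 5, each taken alone, was 29.5, 21.6, 30.8 and 21.8% for H3R2me2s replicates 1 and 2 and H4R3me2a replicates 1 and 2, and chromosome 1 differed from it by -0.856 ± 1.08 points (SD, n = 4; exact sign-flip permutation p = 0.5).

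Within a replicate, the rise and fall of density along the chromosome was nearly the same for both marks and was not that of the input. Over the 201 bins, counts of H3R2me2s and H4R3me2a had a Pearson r of 0.989 in replicate 1 and 0.988 in replicate 2 (Spearman rho 0.980 and 0.985). Between replicates r was 0.900 for H3R2me2s and 0.895 for H4R3me2a (rho 0.939 and 0.909). With both mark and replicate unlike, r was 0.921 for H3R2me2s replicate 1 with H4R3me2a replicate 2. It was 0.869 for H3R2me2s replicate 2 with H4R3me2a replicate 1. Between ChIP lists and the input r was 0.01 and 0.05 for H3R2me2s and 0.03 and 0.08 for H4R3me2a. These values describe the lists and carry no test, since neighbouring bins share their surroundings and all lists share assembly gaps and base composition. Without the first and last 5 Mb r with the input was -0.17 and -0.07 for H3R2me2s and -0.15 and -0.05 for H4R3me2a.

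**Figure D2:**
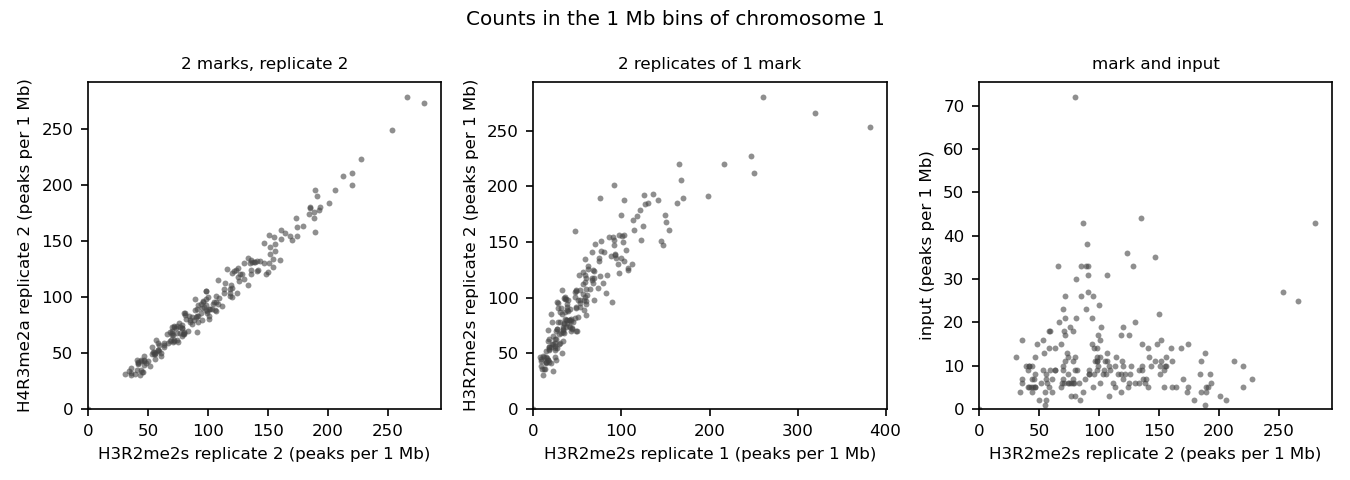
Peak counts in the 1 Mb bins of chromosome 1, 1 point per bin, for H4R3me2a against H3R2me2s in replicate 2 (left), for H3R2me2s replicate 2 against replicate 1 (middle) and for the input against H3R2me2s replicate 2 (right). The points follow a line for the marks (r = 0.988), a bent band for the replicates (r = 0.900) and no line for the input (r = 0.05).

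Both ends of the chromosome were dense, and the rise was short. In the first 1 Mb there were 320 and 266 H3R2me2s peaks in replicates 1 and 2 and 266 and 278 H4R3me2a peaks, against 25 input peaks. In the last 1 Mb there were 385 and 255 H3R2me2s peaks, 284 and 249 H4R3me2a peaks and 27 input peaks. Relative to the median bin these were 6.67 and 2.77 times for H3R2me2s and 7.60 and 3.16 times for H4R3me2a at the start. The input was also above its median there, at 2.78 times.

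The extent differed between the ends. From 1 to 2 Mb after the start, counts were 59 and 135 for H3R2me2s and 42 and 130 for H4R3me2a, below 1.5 times the median in all 4 lists. From 2 to 3 Mb the replicate 2 lists reached 1.67 times the median for H3R2me2s and 1.51 times for H4R3me2a, and the replicate 1 lists did not reach 1.5 times. From 1 to 2 Mb before the far end, counts were still 260 and 280 for H3R2me2s and 214 and 275 for H4R3me2a. Inward of the ends all 4 ChIP lists dropped to some of their lowest values. From 5 to 6 Mb after the start there were 10 and 36 H3R2me2s peaks and 3 and 30 H4R3me2a peaks. From 5 to 6 Mb before the far end there were 8 and 44 H3R2me2s peaks and 3 and 30 H4R3me2a peaks. Input counts in these 2 places were 6 and 5.

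**Figure D3:**
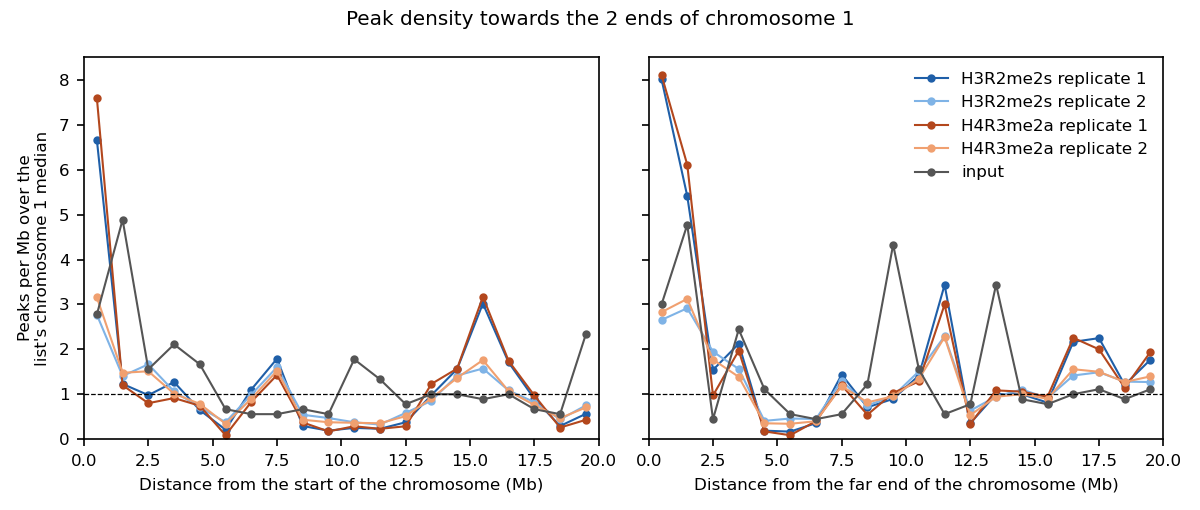
Peaks per Mb divided by each list's chromosome 1 median (y axis, linear) against the distance from the start (left) and from the far end (right) of the chromosome in Mb (x axis), 1 line per list. The ChIP lists lie at 2.77 to 7.60 times their medians in the first 1 Mb and fall below 0.5 times at 5 to 6 Mb from either end, and the input peaks from 1 to 2 Mb, with 44 peaks at the start and 43 at the far end.

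Taking the first and last 5 Mb together, the ends held 2.22 and 1.61 times the density of the interior with H3R2me2s replicates 1 and 2, 2.28 and 1.62 times with H4R3me2a replicates 1 and 2 and 1.92 times in the input. The log2 ratio averaged 0.93 ± 0.278 over the 4 ChIP libraries (SD, n = 4; higher at the ends in 4 of 4, exact sign-flip permutation p = 0.13, the smallest that 4 libraries allow). It was 0.92 ± 0.331 for H3R2me2s and 0.94 ± 0.349 for H4R3me2a (SD, n = 2 each), a difference of -0.020 (exact permutation p = 0.67). The 2 marks of a replicate had close ratios and shared platform and caller, so the 4 values form 2 pairs. With 2 pairs the smallest p is 0.5. With the upper 50% of each list by deposited fold enrichment, the ratio was 1.59 and -0.068 for H3R2me2s replicates 1 and 2 and 1.60 and -0.042 for H4R3me2a. In this setting the ends were thus not denser than the interior in either replicate 2 list. The replicate 2 fold is relative to the library's own local background, and its median was lower where peaks were dense, as given next. The part of this in the negative values was not tested. On chromosomes 2 to 5 the same ratio averaged 1.36, 0.94, 1.33 and 0.95 in the 4 ChIP lists in that order. Chromosome 1 was below this mean in each of the 4, by a mean of -0.22 ± 0.0531 on the log2 scale (SD, n = 4; exact sign-flip permutation p = 0.13, again the smallest possible). These 4 values also form 2 pairs, which the test takes as separate units. Chromosome 4 had the highest ratios, 1.76 and 1.17 for H3R2me2s and 1.88 and 1.16 for H4R3me2a, and so raised the mean in all 4 ChIP lists. Against chromosomes 2, 3 and 5 alone, chromosome 1 was above the mean in H4R3me2a replicate 1 and below it in the other ChIP lists. The sign shared by all 4 lists thus depended on chromosome 4. Chromosome 2 had 1.004 and 0.71 for H3R2me2s and 0.84 and 0.69 for H4R3me2a, below chromosome 1 in replicate 1 and close to it in replicate 2, so chromosome 1 was not below each of the others. The input had 0.94 on chromosome 1, against 0.40, 0.85, -0.70 and 1.01 on chromosomes 2, 3, 4 and 5, whose mean of 0.39 was lowered by chromosome 4.

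Peaks at the start of the chromosome were wider in all 4 ChIP lists and in the input, and the deposited fold differed by platform. In the first 1 Mb the median width was 933 and 738 bp for H3R2me2s and 1035 and 468 bp for H4R3me2a. It was 656 and 609 bp for H3R2me2s and 731 and 435 bp for H4R3me2a in the stretch between 1 Mb from the start and 2 Mb from the far end. In the last 2 Mb the median width was 822 and 621 bp for H3R2me2s and 901 and 417 bp for H4R3me2a, so in replicate 2 the peaks of the far end were about as wide as those in between (H3R2me2s) or narrower (H4R3me2a). Peaks of H3R2me2s covered 43.5% of the first 1 Mb in replicate 1 and 23.2% in replicate 2, and those of H4R3me2a 39.5 and 16.2%. In the input the median width was 169 bp in the first 1 Mb, 157 bp in the last 2 Mb and 147 bp in between. Input peaks covered 0.506, 0.909 and 0.239% of these parts. The median deposited fold enrichment was higher at the start than in between in replicate 1 (12.1 against 9.34 for H3R2me2s, 17.7 against 12.5 for H4R3me2a). In replicate 2 it was lower (2.28 against 3.18 for H3R2me2s, 2.40 against 3.22 for H4R3me2a). These folds are the authors'. Per the file headers, those of replicate 2 are relative to the local background of the ChIP library itself over 10 kb, and those of replicate 1 to a control; the part of this in the difference was not tested.

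At the start, the outermost peaks lay close to the first base of the chromosome. The far end was itself set as the highest peak end, so the last peaks cannot show how close they came to the end of the assembly. The first H3R2me2s peak was chromosome 1:7-1773 in replicate 1 and 25-1376 in replicate 2. The first H4R3me2a peak was 57-3356 in replicate 1 and 122-1296 in replicate 2, and the first input peak was 268-670. At the far end the last H3R2me2s peaks were 200992336-200992848 and 200990164-200990856, the last H4R3me2a peaks were 200992283-200992903 and 200990250-200991034, and the last input peak was 200991838-200991937. The input list thus also had a peak close to the start and to the highest peak end.

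A bin was called dense where its count reached 1.5 times the list's median and poor where it was at most 0.5 times, in both lists of a mark or in all 4 ChIP lists. H3R2me2s had 40 dense bins and H4R3me2a 37, and 34 were dense in all 4 lists. Over the full bins of all chromosomes, 29.0, 30.6 and 27.7% passed these same thresholds, and on chromosome 1 the dense bins made up 19.9, 18.4 and 16.9%. On chromosomes 2 to 5 the share for all 4 lists was 15.6% (66 of 423 bins), and for H3R2me2s and H4R3me2a alone it was 16.5 and 18.9%. There were 22 poor bins for H3R2me2s, 22 for H4R3me2a and 21 for all 4 lists, or 10.9, 10.9 and 10.4% of chromosome 1, against 10.9, 10.8 and 9.17% of bins on all chromosomes and 12.1% on chromosomes 2 to 5 for all 4 lists. For H3R2me2s and H4R3me2a alone, 14.2 and 15.1% of bins on chromosomes 2 to 5 were poor. Poor bins were thus about as frequent on chromosome 1 as in the series as a whole. Their shares were 10.4 to 10.9%, against 12.1 to 15.1% on chromosomes 2 to 5. Dense bins were less frequent than in the series as a whole. Against chromosomes 2 to 5 their share was higher for H3R2me2s and for all 4 lists, and lower for H4R3me2a. These differences were not tested.

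Calls made in 1 replicate were looked up in the other. Of the 62 bins dense in H3R2me2s replicate 1, 40 were dense in replicate 2, where 42 of the 201 bins were. Of the 61 bins dense in H4R3me2a replicate 1, 37 were dense in replicate 2, where 41 were. None of these bins lay below the replicate 2 median of its mark. Of the 40 and 39 bins poor in replicate 1 of H3R2me2s and H4R3me2a, 22 each were poor in replicate 2, where 23 and 24 bins were. On all chromosomes, the share of bins called dense in replicate 2 alone was 29.3% for H3R2me2s and 31.2% for H4R3me2a, and called poor 16.9 and 17.9%. Called in replicate 1 alone, the shares on all chromosomes were 45.0% dense and 15.5% poor for H3R2me2s and 44.8% dense and 15.8% poor for H4R3me2a.

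The dense bins came in 21 runs, of which 3 had at least 3 bins. The longest was chromosome 1:50000001-54000000, with 817 and 847 H3R2me2s peaks in replicates 1 and 2, 630 and 817 H4R3me2a peaks and 41 input peaks. Density there was 3.18 and 2.01 times the chromosome's mean for H3R2me2s, 3.37 and 2.09 times with H4R3me2a and 0.844 times in the input list. Peaks covered 20.5 and 17.4% of this block for H3R2me2s and 17.8 and 12.4% for H4R3me2a. It held 3 of the 5 densest full bins. The bin from 53 to 54 Mb had 247 and 227 H3R2me2s peaks, 186 and 223 H4R3me2a peaks and 7 input peaks. The bin from 52 to 53 Mb had 250 and 212 H3R2me2s peaks, 187 and 208 H4R3me2a peaks and 11 input peaks, and the bin from 51 to 52 Mb had 217 and 220, 175 and 210, and 10. The remaining densest bins were the first of the chromosome and the bin from 199 to 200 Mb, with 261 and 280 H3R2me2s, 213 and 273 H4R3me2a and 43 input peaks.

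The other dense blocks were less extreme. Chromosome 1:61000001-64000000 had 379 and 480 H3R2me2s peaks, 286 and 462 H4R3me2a peaks and 20 input peaks, or 1.96 and 1.52 times the chromosome's mean for H3R2me2s, 2.04 and 1.58 times with H4R3me2a and 0.549 times in the input list. Chromosome 1:83000001-86000000 had 381 and 586 H3R2me2s peaks, 246 and 542 H4R3me2a peaks and 7 input peaks, or 1.98 and 1.86 times for H3R2me2s, 1.75 and 1.85 times with H4R3me2a and 0.192 times in the input list. The block at 83 to 86 Mb was also the only run of at least 3 bins that was poor in the input, so there the marks and the input went in opposite directions. For H3R2me2s alone the far end was a further block, chromosome 1:197000001-200992903, with 821 and 872 peaks. Here H4R3me2a had 601 and 802 peaks and the input 96, and for H4R3me2a the bin from 197 to 198 Mb missed the threshold in replicate 2 (122 peaks) and the bin from 198 to 199 Mb in replicate 1 (36 peaks). Pairs of dense bins lay at 35 to 37, 55 to 57, 108 to 110, 173 to 175, 179 to 181 and 199 to 201 Mb. Of the dense bins that stood alone away from the ends, singled out here after their values were seen, 95 to 96 Mb had most peaks in replicate 1 and 189 to 190 Mb in replicate 2. The first had 198 and 191 H3R2me2s peaks, 151 and 190 H4R3me2a peaks and 5 input peaks, and the second had 165 and 220 H3R2me2s peaks, 105 and 200 H4R3me2a peaks and 5 input peaks.

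Of the poor bins, 2 runs had at least 3 bins in all 4 lists. Chromosome 1:9000001-12000000 held 32 and 112 H3R2me2s peaks, 24 and 96 H4R3me2a peaks and 33 input peaks. Its density was 0.166 and 0.355 times the mean for H3R2me2s, 0.171 and 0.328 times with H4R3me2a and 0.906 times in the input list. Chromosome 1:194000001-197000000 held 34 and 126 H3R2me2s peaks, 23 and 96 H4R3me2a peaks and 19 input peaks, or 0.176 and 0.399 times the mean for H3R2me2s, 0.164 and 0.328 times with H4R3me2a and 0.521 times in the input list. For H3R2me2s the dense far end began where it ended. For H3R2me2s alone chromosome 1:98000001-101000000 was also a poor stretch, with 51 and 130 peaks, against 30 and 128 for H4R3me2a, and for H4R3me2a the first stretch began at 8000001. Marks covered little of these stretches: H3R2me2s peaks lay on 0.674 and 2.72% of the first and on 0.675 and 2.62% of the second, and H4R3me2a peaks on 0.502 and 1.83% and on 0.511 and 1.59%.

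The empty bin, from 77 to 78 Mb, lay within a stretch of 1500 kb at chromosome 1:76857505-78357638 without a peak of any ChIP list. The input had no peak there either, its own empty stretch being chromosome 1:76857277-78357795. Whether the assembly holds sequence there was not tested. The other poorest bins were those from 5 to 6, 195 to 196, 196 to 197 and 11 to 12 Mb, with 8 to 11 H3R2me2s peaks in replicate 1 and 31 to 43 in replicate 2, 3 to 8 and 30 to 31 H4R3me2a peaks, and 5 to 12 input peaks. Apart from the empty stretch no interval without any ChIP peak reached 200 kb. The next longest were chromosome 1:59567235-59717088 (149.9 kb), chromosome 1:4901469-5043197 (141.7 kb), chromosome 1:194394118-194534939 (140.8 kb) and chromosome 1:11116194-11254181 (138.0 kb), and 1 input peak lay in these 4. In all, 17 stretches of at least 100 kb had no ChIP peak, and they made up 1.68% of the chromosome, against 78.6% in stretches of that length without an input peak. These shares are of unlike sets, since the first joins 4 lists and the input is 1 list of 2441 peaks.

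Dense and poor bins held unlike shares of the peaks of each list. The 34 dense bins held 41.4 and 30.1% of the H3R2me2s peaks of the chromosome, 41.9 and 31.0% of the H4R3me2a peaks and 13.9% of the input peaks. The 21 poor bins held 2.14 and 3.93%, 2.11 and 3.76% and 6.76%. Input peaks themselves were most frequent in the bins of neither class, at 13.3 per Mb, and lay at 7.86 per Mb in poor bins. A smaller share of the ChIP peaks lay on an input peak in dense bins. For H3R2me2s replicates 1 and 2 it was 2.84 and 4.27% in dense bins, against 10.1 and 13.7% in poor bins. H4R3me2a had 4.37 and 4.47% in dense bins, against 12.1 and 15.6% in poor bins. These shares have the number of ChIP peaks as their base, and the bins were chosen by that number. They therefore cannot show a trait of the peaks and carry no test.

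The share of peaks found in the other replicate depended on the list from which it was seen. Seen from replicate 2 it was 56.6% in dense and 22.7% in poor bins with H3R2me2s, and 50.8% in dense and 20.8% in poor bins with H4R3me2a. Seen from replicate 1 it was 68.7% in dense and 70.8% in poor bins with H3R2me2s, and 73.0% in dense and 76.8% in poor bins with H4R3me2a. Peaks of replicate 1, fewer in number, were thus met by replicate 2 in all kinds of bins. In the bins of neither class the share seen from replicate 2 was 38.0% with H3R2me2s and 34.0% with H4R3me2a. Most replicate 2 peaks therefore had no partner there, as in poor bins. The bins were chosen by the counts of all 4 lists, those of replicate 1 among them. The higher share in dense bins seen from replicate 2 therefore cannot show a trait of the peaks and carries no test. The median deposited fold enrichment was higher in dense than in poor bins in replicate 1 (9.85 against 8.60 for H3R2me2s, 13.5 against 11.1 for H4R3me2a) and lower in replicate 2 (2.86 against 3.46, 2.98 against 3.56), as at the ends.

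**Figure D4:**
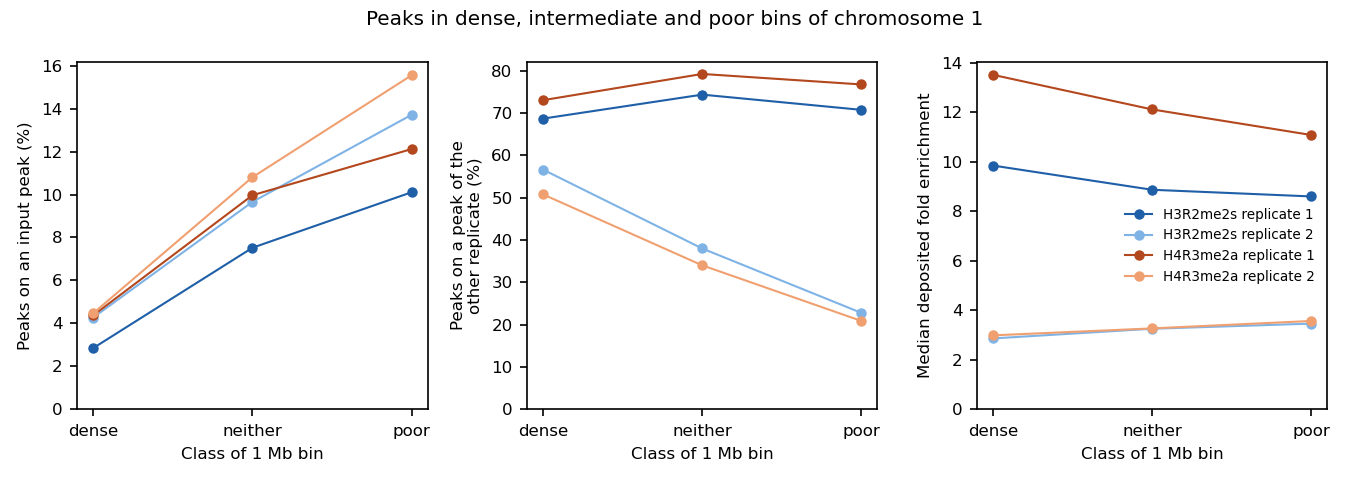
Percent of peaks on an input peak (left), percent on a peak of the other replicate of the mark (middle) and median fold enrichment as deposited (right) in bins that were dense, neither or poor in all 4 ChIP lists, 1 line per ChIP list. The share on input peaks was 2.84 to 4.47% in dense and 10.1 to 15.6% in poor bins, the share on the other replicate differed with bin class in the replicate 2 lists, and fold levels are not comparable between the platforms. The bins were chosen by the peak counts of all 4 lists, so the left and middle panels cannot show a trait of the peaks.

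The marks met at the same sites on chromosome 1 about as often as on the other macrochromosomes. Of the H3R2me2s peaks, 63.3% in replicate 1 (Wilson 95% interval 62.5 to 64.1) and 74.4% in replicate 2 (73.8 to 74.9) were overlapped by at least 1 bp by an H4R3me2a peak of the same replicate, against 64.0 and 74.1% on chromosomes 2 to 5. Over all chromosomes the shares were 69.4 and 73.8%. Of the H4R3me2a peaks, 85.2% (84.5 to 85.9) and 85.7% (85.2 to 86.2) were overlapped by an H3R2me2s peak, against 86.7 and 84.4% on chromosomes 2 to 5 and 89.3 and 84.3% over all chromosomes. These intervals hold counting error alone, as if each peak were independent. The difference between chromosome 1 and chromosomes 2 to 5 averaged -0.211 ± 0.711 percentage points for H3R2me2s and -0.0959 ± 1.99 points for H4R3me2a (SD, n = 2 each), with opposite signs in the 2 replicates of both marks.

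Between replicates, 71.9% of the H3R2me2s and 76.6% of the H4R3me2a peaks of replicate 1 were overlapped by replicate 2 on chromosome 1, against 69.1 and 73.6% on chromosomes 2 to 5 and 65.9 and 68.5% over all chromosomes. Seen from replicate 2 the order was the opposite, with 43.0 and 38.7% on chromosome 1, 48.0 and 42.3% on chromosomes 2 to 5 and 56.3 and 51.2% over all chromosomes. The densities moved with these shares, replicate 2 being denser and replicate 1 less dense on chromosome 1 than on chromosomes 2 to 5, and their part in the shares was not tested.

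The bases covered in both replicates formed 9750 regions for H3R2me2s (6.04 Mb, median width 548 bp) and 7923 for H4R3me2a (4.32 Mb, 480 bp), and 6355 regions of 3.23 Mb were covered in all 4 lists. The last made up 1.61% of the chromosome. A full bin held a median of 23.5 of them, the densest bin 201, and again only the empty bin had none. They lay at 77.5 per Mb in dense and 5.48 per Mb in poor bins. As these bins were chosen by the counts of the peaks that form the regions, this contrast follows from the choice of bins. Input peaks touched 8.12% of the H3R2me2s regions, 10.1% of the H4R3me2a regions and 10.5% of those in all 4 lists.

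Off input peaks, the regions covered in all 4 lists that ranked highest by deposited fold enrichment lay at 5 places along the chromosome. Of these, 1 lay in a dense block and 1 more, the second named below, in a dense bin outside the blocks. At chromosome 1:75728046-75728800 the deposited H3R2me2s fold was 19.7 in replicate 1 and 8.72 in replicate 2, and the H4R3me2a fold was 31.0 and 9.42. At chromosome 1:80235948-80236646 it was 20.6 and 9.35 for H3R2me2s and 27.0 and 8.97 for H4R3me2a. Chromosome 1:52486658-52487651, in the longest dense block, had 18.7 and 7.54 for H3R2me2s and 31.7 and 8.70 for H4R3me2a. Chromosome 1:125514497-125515364 and chromosome 1:185452422-185453768 followed, the first of them 0.153 kb from an input peak. Of these 5 regions, 3 lay in bins below the median density, at a mean of 0.821, 0.866 and 0.892 times it over the ChIP lists. In H3R2me2s replicate 2 alone the same bins were at 1.11, 1.03 and 0.917 times the median. The share of all such regions lying in bins of this kind was not counted, so these places were not set against a background.

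By the lists of 1 mark alone, chromosome 1:7886476-7887045 was among the first 3 for H3R2me2s, with H3R2me2s folds of 21.5 and 7.70, beside the regions at 80.2 and 75.7 Mb. For H4R3me2a, chromosome 1:193541483-193542302 had folds of 38.5 and 8.39. Chromosome 1:7145526-7146220 and 7146288-7146398, 2 neighbouring regions that lay on 1 peak in each H4R3me2a list, both had 44.7 and 9.79. The order by fold was not shared by the platforms: over the 6355 regions Spearman rho between replicates was -0.18 for H3R2me2s and -0.12 for H4R3me2a, while between the marks it was 0.43 in replicate 1 and 0.83 in replicate 2.

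Groups of neighbouring regions in all 4 lists were not counted on other chromosomes, so those of chromosome 1 are given without a background. With gaps of up to 1 kb the 6355 regions formed 5285 groups, of which 6 held 5 or more regions. The longest was chromosome 1:126164435-126171440 (7.01 kb, 4 regions), where H3R2me2s peaks covered 100.0 and 80.4%, H4R3me2a peaks 100.0 and 75.6% and 6 input peaks 26.1%. Chromosome 1:81640418-81645332 (4.92 kb, 5 regions, 2 input peaks) and chromosome 1:126878695-126883461 (4.77 kb, 4 regions, 3 input peaks) came next. Input peaks lay in all 3.

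The input peaks of chromosome 1 were more frequent than on the other macrochromosomes, and they had a landscape of their own. Of the 201 bins, 58 were dense in the input, or 28.9%, against 17.9% of bins on all chromosomes at the same threshold and 13.5% on chromosomes 2 to 5. Poor bins were fewer, with 21 or 10.4%, against 25.4% on all chromosomes and 24.1% on chromosomes 2 to 5. With 1 input library there is no spread to set beside these shares. Runs of at least 3 input-dense bins were chromosome 1:1-5000000 (117 peaks), 103000001-106000000 (103 peaks), 144000001-147000000 (84 peaks), 152000001-160000000 (179 peaks) and 164000001-169000000 (133 peaks). Of the 58 input-dense bins, 6 were dense and 2 poor in all 4 ChIP lists, and of the 21 input-poor bins 6 were dense and 3 poor, where 16.9% of all bins of the chromosome were dense and 10.4% poor. The median ChIP count in the input-dense bins was 0.792 and 0.964 times the median for H3R2me2s and 0.771 and 0.989 times for H4R3me2a.

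The single bin with most input peaks was 104 to 105 Mb, with 72. The ChIP lists had 37 and 80 H3R2me2s peaks and 31 and 86 H4R3me2a peaks there, all below their median counts. By covered bases this bin was not low: H3R2me2s peaks covered 6.69 and 7.67% of it and H4R3me2a peaks 6.80 and 6.38%. Over the whole chromosome they covered 5.37 and 7.82% and 4.37 and 5.35%. The bins from 1 to 2, 154 to 155, 199 to 200 and 191 to 192 Mb followed with 38 to 44 input peaks, and of these only 199 to 200 Mb was dense in the marks. Seen from the input, 42.2 and 87.7% of its peaks on chromosome 1 were overlapped by H3R2me2s replicates 1 and 2 and 40.8 and 86.0% by H4R3me2a, against 44.3 and 88.3% and 44.6 and 86.3% on chromosomes 2 to 5 and 49.3, 89.3, 52.3 and 87.6% over all chromosomes. Seen from the ChIP lists, 5.64 and 8.19% of H3R2me2s peaks on chromosome 1 lay on an input peak and 7.67 and 9.02% of H4R3me2a peaks, against 4.30, 6.45, 5.93 and 6.91% on chromosomes 2 to 5 and 3.72, 6.13, 5.16 and 6.63% over all chromosomes. The part of the higher input density of chromosome 1 in these shares was not tested.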

How the data were processed

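Peak lists of 2 H3R2me2s, 2 H4R3me2a and 1 input library were used as deposited. Per the file headers, the authors called replicate 1 with MACS 1.4.2 (p-value limit 1e-05, a control of 23.3 M tags) and replicate 2 and the input with MACS 2.0.10.20120913 (q-value limit 0.05, no control, local background of 10 kb), with 1 tag kept per position. Alignment is not given in the sources used here. The deposited columns hold tag counts per peak and a percent false discovery rate (replicate 1), pileup signal heights (replicate 2 and input), fold enrichment over background, and −log10 p-values. The deposited score column of replicate 1 is a multiple of −log10 p, per the file headers. The deposited fold was used only to rank or describe peaks within a list.

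From these, peaks of chromosome 1 were counted by midpoint in bins of 1 Mb. Dense bins reached 1.5 times and poor bins at most 0.5 times the list's median, and runs had 3 or more bins. The ends were the first and last 5 Mb. Coordinates are 1-based, as deposited. Header paths name a gal3 folder for SOLiD; the Illumina lists' build is not given in the sources used here, and assembly gaps were not masked. Chromosome length was taken as the highest peak end. Overlap meant at least 1 bp. Exact permutation tests (2-sided) flipped signs over 4 libraries (smallest p 0.13) or exchanged libraries, 2 against 2 (smallest p 0.33), so no test could pass 0.05. Replicate numbers pair the libraries by platform, per the labels' protocols; with 2 pairs the smallest p is 0.5. The input is 1 library and has no test. The members and lists were chosen with earlier results of these data known. Named bins were the 5 densest, poorest and richest in input; named regions were the 5 (all 4 lists) or 3 (1 mark) best by mean rank of deposited fold, off input peaks. Scripts ran in Python 3.11.15 with numpy 2.4.6, pandas 2.3.3 and scipy 1.17.1, and were tested on simulated data. Alternatives were other bin and end sizes, 50% overlap, a common p limit of 1e-05, the upper 50% by fold, covered bases, a replicate block and leaving out replicates.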

Additional observations from a re-analysis of the deposited data

Results flagged for a closer look

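The log2 ratio of peak density on chromosome 1 over chromosomes 2 to 5 had opposite signs in the replicates of both marks. It was -0.117 in H3R2me2s replicate 1 and -0.103 in H4R3me2a replicate 1, both SOLiD libraries called against a control. It was 0.112 in H3R2me2s replicate 2 and 0.0976 in H4R3me2a replicate 2, both Illumina libraries called without one. The difference between the replicates was not tested, and platform, caller, control and depth cannot be told apart in it.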

How the results depend on the processing

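Of 104 alternatives, 8 turned a result's sign, 25 moved a count or a correlation, and 71 did neither; for a tested result the last says only that its sign and its side of the threshold stayed, not its size. In all, 10 were chosen after seeing the data. The mean log2 density ratio of chromosome 1 over chromosomes 2 to 5 (-0.0027) was 0.036 with the upper 50% of peaks by fold, 0.18 against chromosome 2 alone (added) and -0.110 to 0.105 with 1 replicate left out. Its difference between the marks (0.00022) was -0.046 with the upper 50% and -0.0136 to 0.0140 with 1 replicate left out. The difference of the end ratio between the marks (-0.020) was 0.031 with ends of 10 Mb. The overlap difference of H3R2me2s peaks (-0.211 points) was 1.44 points with the upper 50%. Bins dense in all 4 lists (34) numbered 13 with the upper 50% and 37 to 58 with 1 replicate left out, and poor bins (21) numbered 10 and 22 to 36. The mean r between marks of the same replicate was 0.982 with bins of 0.5 Mb, 0.990 with bins of 2 Mb and 0.987 without the ends (added). Between replicates it was 0.881, 0.903 and 0.910 in the same settings, and 0.892 without the 5 bins of most input peaks (added). Between ChIP and input it was 0.109, 0.011, -0.110 and 0.0067. The causes were not tested. The mean log2 end ratio (0.93) was positive under its 8 alternatives, from 0.31 with ends of 10 Mb to 1.69 with ends of 2 Mb. With the upper 50% of peaks by fold the mean was 0.77, but both replicate 2 lists were negative (-0.068 for H3R2me2s and -0.042 for H4R3me2a). With a replicate block the differences between marks had the same values, -0.926 points for the densest bins (exact permutation p = 0.5), -0.020 for the end ratio (p = 0.5) and 0.00022 for the density ratio (p = 1), and no call changed. Depth, platform and caller differ together between replicates, and 4 libraries cannot reach p of 0.05.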

Other observations

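H3R2me2s peaks outnumbered H4R3me2a peaks in most 1 Mb bins of chromosome 1. Over the chromosome the ratio was 1.37 in replicate 1 and 1.08 in replicate 2, against 1.39 and 1.07 on chromosomes 2 to 5. Over the 200 bins that held peaks its 5th and 95th percentiles were 1.08 and 1.83 in replicate 1 and 0.959 and 1.24 in replicate 2. H4R3me2a had the higher count in 4 bins in replicate 1 and in 29 in replicate 2. The H3R2me2s libraries also had more tags after filtering, 14.2 against 10.3 M in replicate 1 and 35.1 against 31.2 M in replicate 2. The part of depth in these ratios was not tested.

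The widest peaks, looked up after their values were seen, differed between the platforms. In replicate 1 the widest peak of H3R2me2s (chromosome 1:199128848-199149283, 20.4 kb) and that of H4R3me2a (chromosome 1:199122249-199149446, 27.2 kb) lay at the same place near the far end. In replicate 2 the stretch of the H4R3me2a peak held 10 H3R2me2s peaks over 39.4% and 12 H4R3me2a peaks over 35.6% of it, and the input had 16 peaks over 26.5%. The widest peak of H4R3me2a replicate 2, chromosome 1:104457304-104462025, was covered by input peaks over 92.2%, and the widest input peak, chromosome 1:104458545-104462009, lay within it.

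Input peaks also came in groups with gaps of up to 1 kb, the largest of 8 peaks at chromosome 1:104495659-104500038. At chromosome 1:21726062-21729495, with 7 input peaks, neither replicate 1 list had a peak, while H3R2me2s replicate 2 covered 81.2% and H4R3me2a replicate 2 covered 62.6%. Most groups (1577 of 1925) were a single peak.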
